A study of Mus musculus with 2 samples.

Results

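Myosin heavy chain (MyHC) genes were followed in quiescent satellite cells (QSCs) and activated satellite cells (ASCs) of mouse skeletal muscle. The 7 genes were Myh1, Myh2, Myh3, Myh4, Myh7, Myh8 and Myh9, taken by their symbols from the 32285 features counted in both libraries. Each group was 1 single-cell RNA-seq library of satellite cells pooled from several mice, sorted from the tibialis anterior (TA) muscle of 8 weeks old Pax7 CreERT2/+ ;Rosa26 mTmG/+ animals. The QSC library came from uninjured muscle and the ASC library from muscle taken 1.5 days after an injection of cardiotoxin, which destroys fibres. Both groups carried the same alleles: a Cre recombinase induced by tamoxifen and driven from the Pax7 locus of satellite cells, and a reporter that changes colour in cells where Cre has acted. Because each group had 1 library, no difference has a replicate check, no test was run, and injury and library cannot be told apart.

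Myosin heavy chains are the motor proteins of the thick filament, and the isoform that a muscle fibre makes sets much of its speed of contraction. In adult limb muscle of the mouse, Myh7 encodes the slow isoform of type I fibres, and Myh2, Myh1 and Myh4 encode the fast isoforms of type IIa, IIx and IIb fibres, in order of increasing speed. Myh3 and Myh8 encode the embryonic and neonatal isoforms, which appear in development and again in regenerating fibres, and these 6 are the sarcomeric members of the set. Myh9 encodes the heavy chain of non-muscle myosin IIA, which works in the cytoskeleton of most cells. Satellite cells themselves carry no sarcomeres, and resting muscle of the TA kind is made mostly of fast fibres.

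The isoforms whose proportions differed most between the libraries lie next to each other. In the GENCODE annotation of GRCm38, Myh3 (67078300 to 67102291), Myh2 (67171027 to 67197517), Myh1 (67200052 to 67224575), Myh4 (67238029 to 67260446) and Myh8 (67277124 to 67308634) follow in this order on the plus strand of chromosome 11, over 230 kb. Myh7 lies on the minus strand of chromosome 14 (54970684 to 54994626) and Myh9 on the minus strand of chromosome 15 (77760587 to 77842175). All 7 members had a RefSeq promoter window of 300 bases, 250 before the start and 50 after it. The windows of Myh2 (chr11:67170777-67171076), Myh1 (chr11:67199852-67200151), Myh4 (chr11:67237562-67237861) and Myh8 (chr11:67276874-67277173), all plus strand of GRCm38.p6, are printed because these genes share a stretch of sequence although their levels differed widely. Capitals mark the longest run of bases that all 4 windows hold.
Myh2: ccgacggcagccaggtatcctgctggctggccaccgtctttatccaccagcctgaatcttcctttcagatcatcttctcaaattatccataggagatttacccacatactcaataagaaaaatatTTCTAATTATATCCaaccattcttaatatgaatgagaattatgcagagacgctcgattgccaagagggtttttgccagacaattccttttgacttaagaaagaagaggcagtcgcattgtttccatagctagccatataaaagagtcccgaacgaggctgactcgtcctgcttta
Myh1: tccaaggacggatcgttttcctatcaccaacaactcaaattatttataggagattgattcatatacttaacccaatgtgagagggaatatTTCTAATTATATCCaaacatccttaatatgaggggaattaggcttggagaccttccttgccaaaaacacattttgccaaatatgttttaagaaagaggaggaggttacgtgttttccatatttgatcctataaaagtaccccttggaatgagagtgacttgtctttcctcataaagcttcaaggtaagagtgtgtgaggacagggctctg
Myh4: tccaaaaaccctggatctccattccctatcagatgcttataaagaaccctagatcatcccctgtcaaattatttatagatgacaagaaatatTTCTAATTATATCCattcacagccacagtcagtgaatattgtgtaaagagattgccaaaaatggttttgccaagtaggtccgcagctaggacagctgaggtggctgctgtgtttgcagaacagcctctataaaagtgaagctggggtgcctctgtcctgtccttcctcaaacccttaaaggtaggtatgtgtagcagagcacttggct
Myh8: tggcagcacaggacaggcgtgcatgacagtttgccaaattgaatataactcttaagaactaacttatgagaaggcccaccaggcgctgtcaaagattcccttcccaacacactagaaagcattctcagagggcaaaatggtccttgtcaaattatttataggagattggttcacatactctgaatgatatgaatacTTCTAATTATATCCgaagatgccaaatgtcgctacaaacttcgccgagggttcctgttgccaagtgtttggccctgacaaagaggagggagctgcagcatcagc

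The shared run was 14 bases long. It began at position -125 from the annotated start in Myh2, -160 in Myh1, -158 in Myh4 and -54 in Myh8, with the start base counted as 0. Of 32851 promoter windows searched on both strands, 4 held the run (0.0122%), those of the same 4 genes, and it was in none of the windows of Myh3, Myh7 and Myh9. The E-box letters CANNTG, which myogenic bHLH factors bind, occurred 3 times in the Myh4 window and 2 times in that of Myh8. They did not occur in the windows of Myh1 and Myh2, against 72.3% of all windows that held them. A MEF2 motif occurred once each in Myh1, Myh4 and Myh8 and not in Myh2 (3.19% of all windows), and a CArG box, the motif of serum response factor, in Myh4 alone of the 7 (1.63% of all windows). The letters TATAAA were in all 4 windows (13.6% of all windows) and can overlap the MEF2 motif. The RefSeq start of Myh4 lies 217 bases upstream of the GENCODE start used for its gene coordinates. These matches describe letters in the windows and not sites in use.

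The QSC library held 766 deposited barcodes and the ASC library 1650, of which 516 and 1468 had at least 500 genes and at most 10% mitochondrial UMIs (unique molecular identifiers, each standing for 1 captured transcript). They carried 1162091 and 8895815 UMIs, with medians of 2155 and 3502. The libraries shared 4 barcode sequences, 2 of them among kept barcodes. Both libraries contained fibre RNA, so barcodes were placed in classes with 17 fibre genes that include no MyHC gene. Fibre-high barcodes took at least 10% of their UMIs from these genes and made up 103 of 516 QSC barcodes (19.96%, exact 95% interval 16.6 to 23.7) and 872 of 1468 ASC barcodes (59.4%, 56.8 to 61.9). Of the rest, 16 QSC and 93 ASC barcodes took at least 1% of their UMIs from 13 immune genes and are called immune. The remaining 397 and 503 are called fibre-low. The fibre list holds Mb and the slow genes Tnnt1, Tnni1, Tnnc1, Myl2 and Myl3. It also holds the fast genes Tnnt3, Tnni2, Tnnc2, Mylpf, Actn3, Pvalb and Atp2a1. Levels of these genes in a class thus partly reflect how the class was chosen. The satellite cell gene Pax7 stood at 201 CPM (counts scaled to a library or class total of 1000000 UMIs) in QSC fibre-low barcodes and at 29.1 CPM in ASC fibre-low barcodes. In fibre-high barcodes Pax7 stood at 9.40 and 1.06 CPM (2 and 3 UMIs). These barcodes, though sorted as satellite cells, thus held next to none of this marker. Myod1 and Myog, genes of activated and committed cells, differed between the libraries there. Myod1 had 3 UMIs in QSC fibre-high barcodes and 461 (162 CPM) in ASC ones, and Myog had 0 and 331 (117 CPM). In ASC fibre-low barcodes they stood at 406 and 921 CPM. There were 4 QSC and 193 ASC barcodes with a fibre share between 7.5% and 12.5%, close to the limit.

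Over all kept barcodes, Myh4 was higher in the ASC library, Myh1 and Myh2 were lower, and Myh3, Myh7 and Myh8 were seen in the ASC library alone. Levels are CPM of summed UMIs. Since 3' chemistry gives 1 UMI a transcript, they were not divided by length. Brackets hold exact Poisson intervals of 95% for levels and exact binomial ones for ratios and shares, which cover counting error only. Myh4, the type IIb isoform, had 143 UMIs in QSCs and 3023 in ASCs, or 123 CPM (104 to 145) and 340 CPM (328 to 352), a log2 ratio of ASC over QSC of 1.47 (1.22 to 1.72). Myh1, the type IIx isoform, had 268 and 1011 UMIs, or 231 CPM (204 to 260) and 114 CPM (107 to 121), a log2 ratio of -1.02 (-1.22 to -0.82). Myh2, the type IIa isoform, had 49 and 106 UMIs, or 42.2 CPM (31.2 to 55.7) and 11.9 CPM (9.76 to 14.4), and its log2 ratio was -1.82 (-2.32 to -1.30). The intervals of the levels of these 3 genes did not overlap between the libraries. The share of all genes with such intervals was not counted, so this cannot show whether the 3 stand out. Myh9 was at 50.8 CPM in QSCs and 35.7 CPM in ASCs, a log2 ratio of -0.51 (-0.91 to -0.08).

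Myh3 had 0 UMIs in QSCs and 31 in ASCs (3.48 CPM, 2.37 to 4.95), Myh7 0 and 26 (2.92 CPM, 1.91 to 4.28) and Myh8 0 and 4 (0.450 CPM, 0.123 to 1.15). A count of 0 in the QSC library allows up to 3 UMIs, or 2.58 CPM, so the ASC levels were at least 1.35-fold that limit for Myh3 and 1.13-fold for Myh7, before the counting error of the ASC counts. With that error included, the exact lower limits of the log2 ratio were 0.05 for Myh3 and -0.22 for Myh7. A difference was thus not detectable at this depth for Myh7 and Myh8, and barely so for Myh3. The QSC library could thus not have shown Myh3 or Myh7 much below the ASC level. Ordered by CPM, the QSC levels ran Myh1, Myh4, Myh9, Myh2 and then the 3 genes at 0, with the intervals of Myh9 and Myh2 overlapping. The ASC levels ran Myh4, Myh1, Myh9, Myh2, Myh3, Myh7 and Myh8, with the intervals of Myh3 and Myh7 overlapping.

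Among the 11189 genes with at least 20 UMIs over both libraries, 15.8% were at least 2-fold higher and 23.8% at least 2-fold lower in ASCs, with 0.5 added to each count. Of the 6 members that reached 20 UMIs, 3 were on the higher side (Myh3, Myh4 and Myh7) and 2 on the lower side (Myh1 and Myh2). For Myh3 and Myh7 this rests on the 0.5 added to a QSC count of 0, and their bounds are below 2-fold. The median log2 ratio of the 6 members was 0.47, or -0.17 with those at 0 set to their bound, beside -0.25 for the 5730 genes with at least 20 UMIs in each library. Relative to that median gene, Myh4 stood at 1.72, Myh1 at -0.77, Myh2 at -1.57 and Myh9 at -0.25 on the log2 scale.

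**Figure D1:**
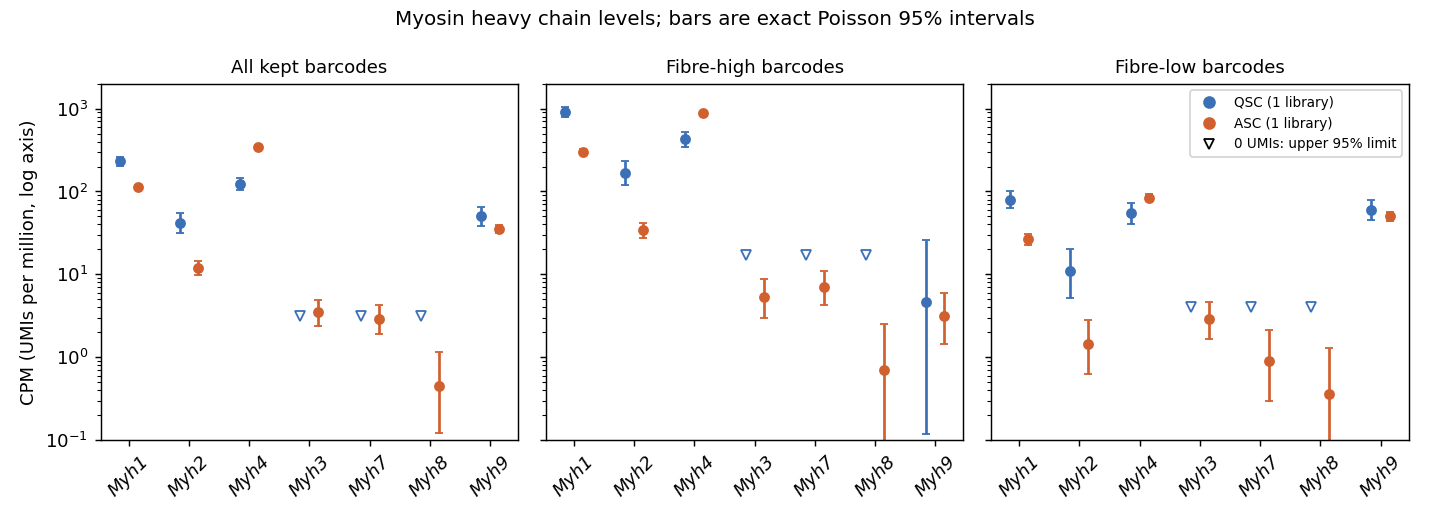
Level of the 7 myosin heavy chain genes in CPM (log axis) in the QSC and ASC libraries, over all kept barcodes, fibre-high barcodes and fibre-low barcodes, 1 library per group. Points are summed UMIs in CPM with exact Poisson 95% intervals, and open triangles mark the upper limit of a gene with 0 UMIs. Myh4 is higher and Myh1 lower in ASCs in all 3 panels, while Myh9 lies near the bottom of the fibre-high panel and close to the fast isoforms in the fibre-low panel.

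Some counts are less certain because the genes resemble or overlap each other. In the last 500 bases of their longest transcripts, where 3' reads fall, Myh1 and Myh2 share a run of 121 identical bases and 72 of their 50-base words. Each of them shares a run of 83 bases and 34 such words with Myh4, and one of 55 bases and 6 words with Myh8. Myh4 and Myh8 shared a run of 42 bases but no 50-base word, and no pair that includes Myh3, Myh7 or Myh9 shared such a word, with runs of at most 34 bases. How reads that match several genes were treated is not given in the sources used here. Myhas, an antisense gene that overlaps Myh1, had 23 UMIs in QSC fibre-high barcodes and 97 in ASC ones, a log2 ratio of -1.66 (-2.33 to -0.94) beside -1.60 (-1.83 to -1.37) for Myh1 itself. The use of strand in counting is not given in the sources used here, so reads of that pair may not be fully apart.

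Within fibre-high barcodes, where most sarcomeric MyHC UMIs lay, the same 3 isoforms differed in the same directions. Myh4 stood at 428 CPM (344 to 525) in QSCs and 883 CPM (849 to 918) in ASCs, a log2 ratio of 1.05 (0.74 to 1.36). Myh1 stood at 911 CPM (788 to 1049) and 300 CPM (280 to 321), 3.04-fold lower in ASCs. Myh2 stood at 169 CPM (118 to 234) and 34.1 CPM (27.7 to 41.7), a log2 ratio of -2.31 (-2.87 to -1.71). Myh1 was therefore the most abundant isoform of QSC fibre-high barcodes and Myh4 that of ASC ones, with intervals that did not overlap in either library. With the class from a fibre share of 20%, the QSC order turned, and Myh4 made up 54.4% of its MyHC UMIs (46.0 to 62.5). Across the 6120 genes tested in this class, 20% were at least 2-fold higher and 10.7% at least 2-fold lower in ASCs. Of the 4 members tested there, Myh4 was on the higher side and Myh1 and Myh2 on the lower. Myh7 was counted as higher through the 0.5 added to a QSC count of 0 alone, since its ASC level of 7.04 CPM lay below the 14.1 CPM that 3 UMIs are worth in this class of the QSC library. Their median log2 ratio was -0.28, or -1.30 with Myh7, at 0 in QSCs, set to its bound, beside -0.18 over 1207 genes.

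The Myh2 difference rested partly on few barcodes. A QSC barcode of 10167 UMIs held 18 of the 36 Myh2 UMIs of its class, and without it the QSC level was 88.8 CPM and the log2 ratio -1.38. With at most 1% mitochondrial UMIs the Myh2 ratio was -0.77 (-1.71 to 0.34), and with at least 1000 genes per barcode that of Myh1 was -0.85 in fibre-high barcodes and -0.22 (-0.58 to 0.17) over all kept barcodes. Over all kept barcodes, that mitochondrial limit also brought the Myh4 ratio to 0.56 and the Myh1 ratio to -1.73. For Myh4 in fibre-high barcodes the log2 ratio lay between 0.76 and 1.21 under all 9 alternatives tried.

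Summed over the 6 sarcomeric genes, MyHC made up 396 CPM of all kept QSC barcodes (460 UMIs) and 472 CPM of the ASC ones (4201 UMIs), a log2 ratio of 0.25 (0.12 to 0.40). In fibre-high barcodes the sum was 1508 CPM (1348 to 1682) in QSCs and 1230 CPM (1190 to 1272) in ASCs, a log2 ratio of -0.29 (-0.46 to -0.12). The direction thus differed between the whole library and its fibre-high class, the class that held 19.96% of QSC and 59.4% of ASC barcodes. The sum over all kept barcodes was lower in ASCs (-0.40) with at most 1% mitochondrial UMIs, and the fibre-high sum was higher in ASCs (0.43) when the class began at a fibre share of 20%. Set against the 17 fibre genes rather than the whole library, the sums were nearly equal. Fibre-high barcodes held 7.30 MyHC UMIs (6.53 to 8.15) for each 1000 fibre gene UMIs in QSCs and 7.38 (7.13 to 7.62) in ASCs.

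The make-up of the sarcomeric MyHC UMIs differed more than their sum. In QSC fibre-high barcodes 60.4% were Myh1 (54.9 to 65.8), 28.3% Myh4 (23.5 to 33.6) and 11.2% Myh2 (7.98 to 15.2) of 321 UMIs. In ASC fibre-high barcodes 71.8% were Myh4 (70.2 to 73.3), 24.4% Myh1 (23.0 to 25.9) and 2.78% Myh2 (2.26 to 3.38) of 3495 UMIs. Myh7 made up 0.572%, Myh3 0.429% and Myh8 0.0572% in ASCs, and each of them was 0 of 321 in QSCs, with an exact upper limit of 1.14%. Fibre-low barcodes repeated the pattern of their own library, with 37.6% Myh4 in QSCs (29.4 to 46.4) and 72.4% in ASCs (68.8 to 75.8). The immune barcodes of the ASC library had 78.5% Myh4 (66.5 to 87.7) of 65 UMIs, and those of the QSC library held only 6 MyHC UMIs.

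**Figure D2:**
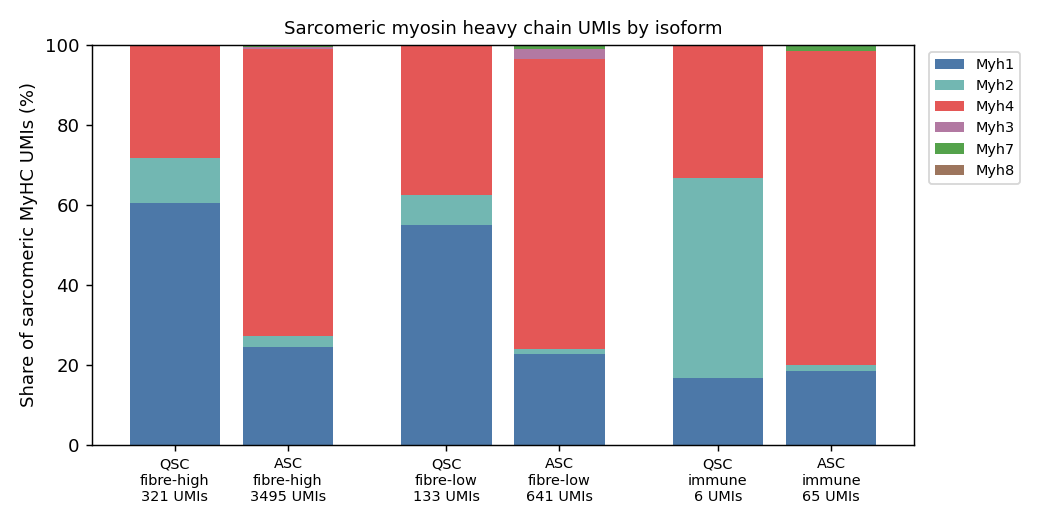
Share of each isoform among sarcomeric MyHC UMIs (%), by library and barcode class, with the number of UMIs under each bar. Myh4 takes 28.3% of the QSC fibre-high bar and 71.8% of the ASC fibre-high bar, and the ASC fibre-low and immune bars look like the ASC fibre-high one.

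The Myh4 share also varied with the fibre share of the barcode, and the libraries differed at matched fibre shares. At fibre shares of 10% to 15%, 5.88% of sarcomeric MyHC UMIs were Myh4 in 10 QSC barcodes (0.721 to 19.7) and 67.9% in 358 ASC barcodes (64.6 to 71.2). At 15% to 20% the shares were 5.80% in 36 QSC barcodes (2.54 to 11.1) and 65.3% in 398 ASC barcodes (63.1 to 67.5). At 20% to 25% they were 42.9% in 42 QSC barcodes (33.5 to 52.5) and 88.6% in 115 ASC barcodes (86.3 to 90.7). Above 25% there were 15 QSC barcodes with 89.2% Myh4 (74.6 to 97.0) and 1 ASC barcode. In the first 3 ranges the intervals of the libraries were apart. In both libraries the barcodes richest in fibre genes were richest in Myh4, a comparison in which the fibre list itself holds Pvalb, the calcium buffer of the fastest fibres. Myh2 was 19.6% of the MyHC UMIs of QSC barcodes with fibre shares of 15% to 20% and 3.57% of those with 20% to 25%. In the range of 15% to 20%, 1 barcode held 18 of the 27 Myh2 UMIs. How much of the library difference comes from sampling different fibres of the muscle and how much from injury cannot be told apart.

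**Figure D3:**
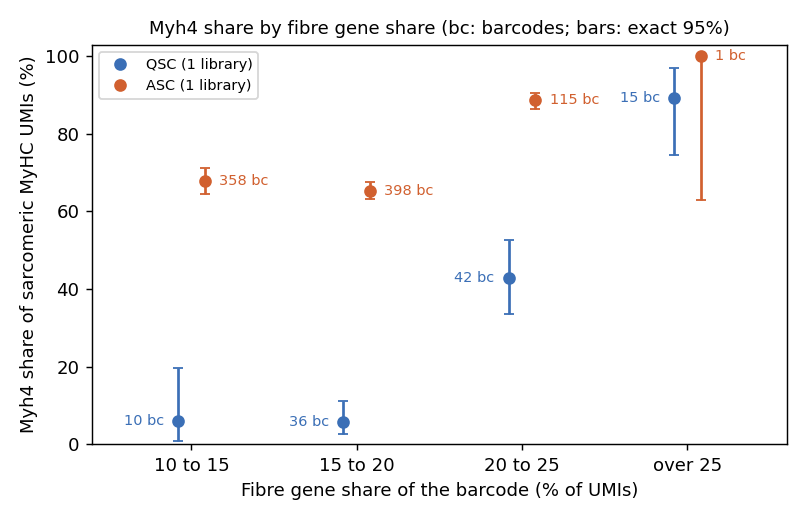
Myh4 share of sarcomeric MyHC UMIs (%) against the share of a barcode's UMIs that comes from 17 fibre genes (%), for QSC and ASC fibre-high barcodes. Points are pooled over the barcodes of a range (number beside the point) with exact 95% intervals. QSC points lie at 5.88% and 5.80% in the lowest ranges and reach 89.2% in the highest, and ASC points lie between 65.3% and 88.6% where there is more than 1 barcode.

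Single barcodes held few MyHC UMIs, with a median of 2 in QSC and 3 in ASC fibre-high barcodes. Of the 103 QSC fibre-high barcodes 17 (16.5%) had none, as did 157 of 872 ASC ones (18.0%). Among barcodes with at least 5 MyHC UMIs, 14 of 21 in QSCs and 154 of 253 in ASCs (60.9%) showed a single isoform. Myh1 made up more than 50% in 15 of the 21 QSC barcodes, Myh4 in 5 and Myh2 in 1. In the ASC barcodes Myh4 was above 50% in 192, Myh1 in 49, Myh2 in 8 and Myh7 in 2 of the 253. The order of Myh1 and Myh4 thus differed between the libraries in single barcodes as well as in pooled counts. Thinned to 1200 UMIs each, 28.1% of 89 QSC and 48.1% of 799 ASC fibre-high barcodes had a Myh4 UMI (35.0% and 65.02% unthinned). For Myh1 the thinned shares were 47.2% and 21.4% (54.4% and 34.2% unthinned).

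Isoforms shared barcodes unevenly. Myh1 and Myh4 occurred together in 10 of 56 QSC barcodes with Myh1 (17.9%), while 35.0% of all QSC fibre-high barcodes had Myh4. In ASCs they occurred together in 166 of 298 barcodes with Myh1 (55.7%), while 65.02% of all had Myh4. Myh2 was found more with Myh1 than with Myh4. In ASCs, 21 of 41 barcodes with Myh2 also had Myh1 (51.2%, against 34.2% in all) and 13 had Myh4 (31.7%, against 65.02% in all). In QSCs, 8 of 12 had Myh1 and 1 had Myh4. Barcodes with both genes were also deeper, with a median of 3652.5 UMIs for Myh1 with Myh4 in ASCs against 2711.5 in the class, and doublets were not removed.

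**Figure D4:**
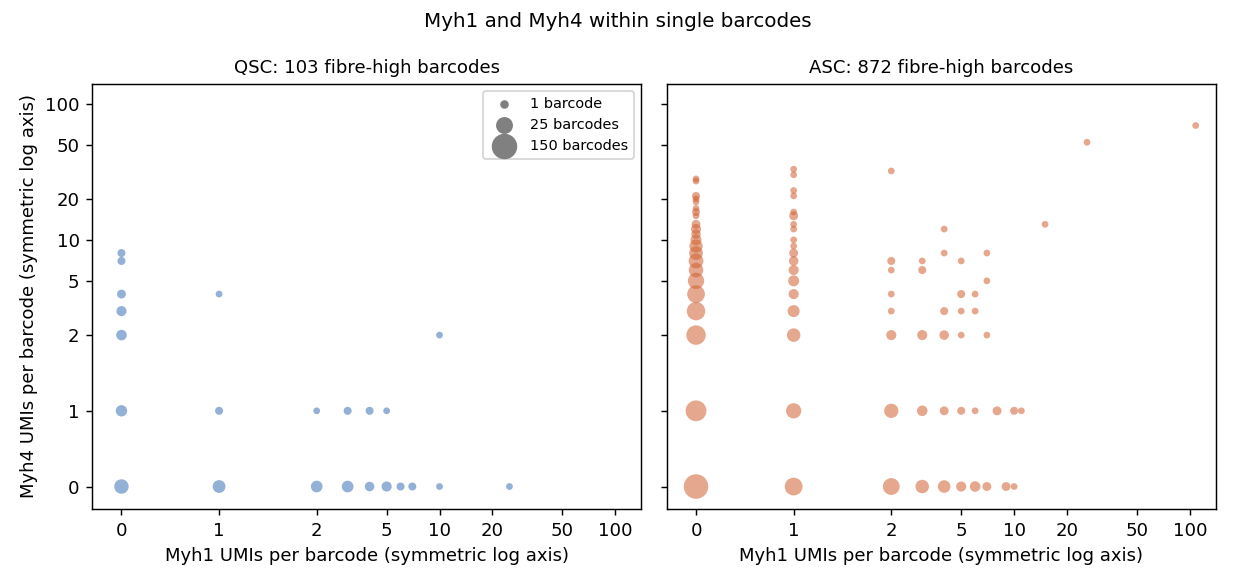
Myh1 UMIs (x axis) and Myh4 UMIs (y axis) in single fibre-high barcodes of the QSC and ASC libraries, both on symmetric log axes, with dot size for the number of barcodes at that point. QSC dots lie mostly along the axes, and ASC barcodes extend far up the Myh4 axis, with 1 barcode at 108 Myh1 and 69 Myh4 UMIs.

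The top ASC barcode in that plot had 76126 UMIs and held 108 of the 1011 Myh1 UMIs (10.7%). Without it, Myh1 was at 269 CPM (300 with it) and Myh4 at 73.5% of MyHC UMIs in ASC fibre-high barcodes. Barcodes with a given fast isoform also differed in other fibre genes. Mb, the oxygen-binding myoglobin of oxidative fibres, stood at 2444 CPM in the 36 QSC fibre-high barcodes with Myh4 and 8138 CPM in the 67 without, and at 2279 and 6770 CPM in ASCs. Pvalb showed the opposite order, with 13641 CPM with Myh4 and 6539 CPM without in QSCs, and 14125 and 7573 CPM in ASCs. With Myh2 the values turned around: Mb was at 11524 CPM with and 4891 CPM without Myh2 in QSCs, and at 8788 and 3185 CPM in ASCs. Pvalb was at 2627 CPM with and 10538 CPM without Myh2 in QSCs, and at 5220 and 12769 CPM in ASCs. The 12 QSC barcodes with Myh2 pooled 30459 UMIs, of which 1 barcode gave 10167. Within fibre-high barcodes, the same pairing of isoform with metabolic gene appeared in both libraries. Mb and Pvalb both belong to the gene list that sets this class.

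The genes whose counts ran most like those of Myh1, Myh2 and Myh4 were sought over 799 thinned ASC fibre-high barcodes, among genes detected in at least 5% of them. For Myh4 (384 barcodes with a UMI) they were Pvalb (Pearson r = 0.373), Tpm1 (0.299), Ckm (0.294), Mybpc2 (0.283) and Actn3 (0.268), and Mb was the lowest of 2335 genes (-0.332). For Myh1 (171 barcodes) they were Mb (0.313), Fhl1 (0.243), Tpm2 (0.199), Cox5b (0.162) and Cox6c (0.157), with Pvalb lowest (-0.214). For Myh2 (17 barcodes) they were Myoz2 (0.355), a Z-disc protein gene, then Ldhb (0.191), 2310075C17Rik (0.185), Ankrd2 (0.145) and Avpi1 (0.140), and Pvalb was again lowest (-0.248). These are correlations within 1 library over barcodes of equal depth, given as description. Most are weak, and those of Myh2 rest on few barcodes. For Myh7 only 5 of these barcodes had a UMI, with Tpm3 (0.527) first. Myh3, Myh8 and Myh9 were taken over 484 thinned fibre-low barcodes, of which 2, 0 and 23 had a UMI. The first gene for Myh9 was Prelp (0.219), and none is given for Myh3 and Myh8.

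MyHC UMIs also appeared in barcodes that should lack sarcomeres. In fibre-low barcodes the sarcomeric sum was 145 CPM (121 to 172) in QSCs and 116 CPM (107 to 125) in ASCs. In immune barcodes, which are not expected to express these genes, it was 184 CPM (67.4 to 400) and 122 CPM (94.5 to 156), so the fibre-low level was not above that background in either library. At 1200 UMIs, 8.68% of ASC fibre-low barcodes had a Myh4 UMI against 10.2% of immune barcodes, with unthinned median depths of 6436 and 5605 UMIs. In the QSC library the MyHC UMIs per 1000 fibre gene UMIs were alike in the 3 classes, at 7.30, 7.51 (6.29 to 8.90) and 7.53 (2.76 to 16.4) for fibre-high, fibre-low and immune barcodes. In the ASC library they were 7.38 in fibre-high barcodes, 5.01 (4.63 to 5.42) in fibre-low ones and 4.31 (3.32 to 5.49) in immune ones. Few barcodes weighed on these values: 1 ASC fibre-low barcode held 46 of the 464 Myh4 UMIs of its class, and 1 immune barcode with a fibre share of 9.92% held 11 of the 51 Myh4 UMIs of the ASC immune class. The source of the sarcomeric UMIs of fibre-low barcodes was not tested. The comparison uses the sum and rests on 6 QSC and 65 ASC immune UMIs, so it cannot show whether some fibre-low cells express these genes. Myh3 had 16 UMIs (2.90 CPM) in ASC fibre-low barcodes. It had 0 in ASC immune ones, where 3 UMIs are worth 5.65 CPM. In fibre-low barcodes the Myh1 level was 79.6 CPM in QSCs and 26.4 in ASCs and the Myh4 level 54.6 and 84.0 CPM. Among the 10236 genes tested in this class 17.5% were at least 2-fold higher and 24.9% at least 2-fold lower, and of the 3 members tested there Myh1 was lower and Myh4 and Myh9 lay between.

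The slow isoform Myh7 was seen in 12 ASC barcodes, most of them with a slow profile. It had 26 UMIs in all, the top one with 5. Of these, 10 barcodes with 24 of the UMIs held 54 to 533 UMIs of 5 slow genes (Tnnt1, Tnni1, Tnnc1, Myl2 and Myl3), beside 23 to 180 UMIs of 5 fast ones. The other 2 held 1 Myh7 UMI each and 2 and 9 slow UMIs. In all, 14 ASC barcodes had at least 50 slow UMIs, a limit set after the values were seen, and they carried 74.2% of all slow gene UMIs of the library. The next barcode below had 35, and no QSC barcode had more than 24. Over all kept ASC barcodes, slow genes made up 72.2% of slow plus fast UMIs in the 12 with Myh7 and 0.388% in the 1456 without. The slow and fast genes are part of the fibre list that sets the fibre-high class. In the 8 ASC fibre-high barcodes with Myh7 the slow share was 76.7%, against 0.265% in the 864 without it. Tnnt1, the slow troponin T, stood at 15735 CPM with Myh7 and 53.9 CPM without, and Mb at 25001 and 3182 CPM. Of these 8 barcodes 4 also held Myh4 (65.02% of all ASC fibre-high barcodes did) and none held Myh2 (4.70% of all did), too few to show a difference.

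The embryonic isoform Myh3 was found in 2 kinds of ASC barcodes. It had 31 UMIs in 15 barcodes. In 6 of them, with 22 of the UMIs, it had 2 to 6 UMIs each, beside 139 to 375 slow gene UMIs and 0 to 5 UMIs of Myog (the transcription factor gene of differentiating myoblasts), and 5 of the 6 also held Myh7. In the other 9 it had 1 UMI each, beside 0 to 3 slow gene UMIs and 25 to 190 Myog UMIs (median 73), and none held Myh7. Those 9 barcodes were fibre-low, with fibre shares of 1.42% to 1.94%, and deep, with 9319 to 22886 UMIs. They were among the 59 kept ASC barcodes with at least 20 Myog UMIs, of which 9 held Myh3. Pax7 was at 0 UMIs in all 15. Of the 1453 ASC barcodes without Myh3, 109 held Pax7, so 15 barcodes are too few to show a difference. Depth moves with this second kind: the 11 fibre-low barcodes with Myh3 had a median of 11225 UMIs and those without 6221.5, and the part of depth was not tested. With 1 UMI each, these 9 are close to what the counts can show.

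**Figure D5:**
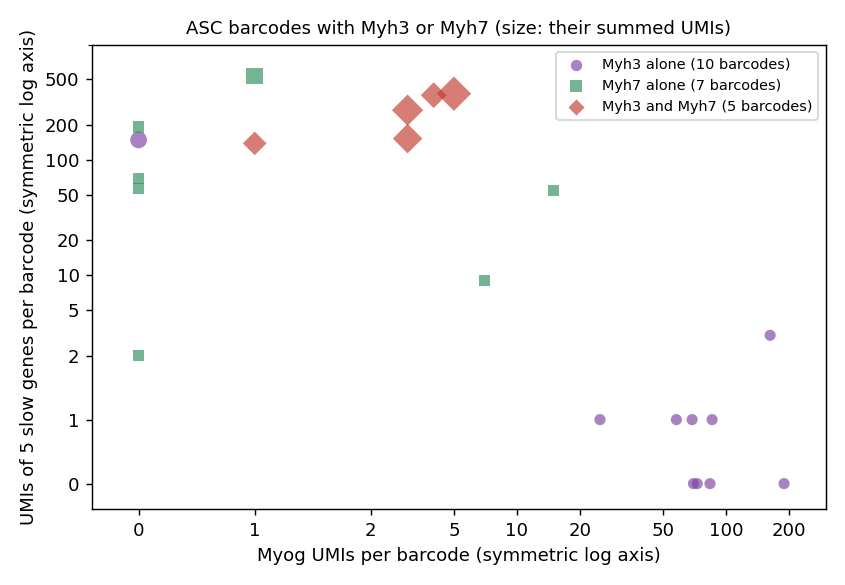
UMIs of 5 slow genes (y axis) against Myog UMIs (x axis) in the ASC barcodes that held Myh3 or Myh7, both on symmetric log axes, with symbol size for the sum of Myh3 and Myh7 UMIs. Barcodes with both genes lie at 139 to 375 slow UMIs and at most 5 Myog UMIs, and 9 of the 10 with Myh3 alone lie at 3 or fewer slow UMIs and at least 25 Myog UMIs.

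The neonatal isoform Myh8 had 1 UMI in each of 4 ASC barcodes, 2 fibre-high and 2 fibre-low. The fibre-low ones had 140 and 163 Myog UMIs and the fibre-high ones had none. The fibre-low barcode with 163 Myog UMIs also held a Myh3 UMI. At 1.5 days after injury neither developmental isoform came near the adult fast isoforms Myh1 and Myh4, with Myh3 at 0.738% (0.502 to 1.05) and Myh8 at 0.0952% (0.0260 to 0.244) of the 4201 sarcomeric MyHC UMIs of the ASC library. The adult slow isoform Myh7 was as rare as Myh3, at 0.619% (0.405 to 0.905).

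The non-muscle member Myh9 was placed the other way round from the sarcomeric genes. It stood at 60.0 CPM in QSC fibre-low barcodes (45.2 to 78.1) and 49.96 CPM in ASC ones (44.2 to 56.2), against 4.70 CPM (1 UMI) and 3.17 CPM (9 UMIs) in fibre-high barcodes. Immune barcodes had 91.8 CPM (18.9 to 268) and 62.2 CPM (42.8 to 87.3). Of its UMIs, 1.69% lay in fibre-high barcodes in QSCs and 2.83% in ASCs. In fibre-low barcodes the log2 ratio of ASC over QSC was -0.26 (-0.69 to 0.18), an interval that holds 0, and 0.03 relative to the median gene. A difference was not detectable at this depth, and the interval reaches down to -0.69. TMM scaling gave 0.07 and the mean over barcodes -0.66, and with fibre-low barcodes taken up to a fibre share of 20% the ratio was -0.58 (-1.005 to -0.14), an interval that does not hold 0.

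Barcodes were also clustered with the 7 members left out of the variable genes, and their MyHC content was then read in clusters of at least 15 barcodes of a library. QSC fibre barcodes were mostly in cluster 8, led by Pdk4, Neb and Tcap, where all 93 QSC barcodes were fibre-high and Myh4 was 33.6% of Myh1 plus Myh4 UMIs (28.0 to 39.5). ASC fibre barcodes were spread over several clusters. That share was 79.0% in cluster 0 (led by Ampd1 and Rxrg), 80.6% in cluster 3 (Mt3, Trim63), 77.5% in cluster 4 (Myf6, Ankrd2) and 71.98% in cluster 7 (Ankrd1, Csrp3). The intervals of these 4 clusters all lay above that of QSC cluster 8. That of cluster 7 (66.9 to 76.7) did not meet that of cluster 0 (76.9 to 81.0), so they were not alike to within counting error. In cluster 5, led by the cell cycle genes Rrm2 and Cdc20 among others and with 41 fibre-high barcodes of 147 in ASCs, the share was 58.5% (54.5 to 62.4). The 15 ASC barcodes of cluster 12, fibre-like and led by slow genes such as Pln, Tnni1 and Tnnc1, were the exception, with 40.7% Myh7 of 59 sarcomeric MyHC UMIs and 22 Myh3 UMIs. The activated or committed satellite-like cluster 9, led by Mymk, Myog and Actc1, held 8 of the 31 Myh3 UMIs and had 167 CPM of sarcomeric MyHC. Clusters 0 to 5, 7 and 8 were left unnamed because under 2 of the fixed markers of any type were among their 10 leading genes.

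Partners of the heavy chains differed in both directions. Of 10 myosin light chain genes, 4 were at least 2-fold higher over all kept barcodes (Mylpf, Myl2, Myl4 and Myl6b) and 1 lower (Myl12b), beside 15.8% and 23.8% of all genes tested, with a median log2 ratio of 0.39 (-0.25 over all genes). Mylpf, the fast regulatory light chain, stood at 20432 CPM in QSC and 27413 CPM in ASC fibre-high barcodes, and Myl1, the fast essential light chain, at 25825 and 21376 CPM. Myl2, the slow regulatory light chain, was at 0 UMIs in QSC fibre-high barcodes and 121 CPM (109 to 135) in ASC ones, at least 8.62-fold higher than 3 QSC UMIs would be, with an exact lower limit of the log2 ratio of 2.80. The 14 ASC barcodes rich in slow genes held 67.5% of all Myl2 UMIs of the library. Of 7 genes for thick filament binding and assembly, 2 were at least 2-fold higher in fibre-high barcodes (Mybph and Unc45b), a share near the 20% of all genes in that class. Mybph, which encodes a myosin-binding protein, stood at 9.40 CPM (2 UMIs) and 198 CPM, and Unc45b, the chaperone that folds myosin heads, at 37.6 and 84.1 CPM. The other 7 myosin heavy chain genes of the list were nearly absent, with Myh10 (non-muscle myosin IIB) the highest at 12.9 CPM in QSCs and 5.06 CPM in ASCs, and Myh7b, Myh13 and Myh15 at 0 in both.

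Of 7 slow programme genes, 4 of the 5 tested in fibre-high barcodes were at least 2-fold higher in ASCs (Tnnt1, Tnni1, Tnnc1 and Myl2). The share of all genes in that class was 20%. The median log2 ratio of the 5 was 5.32, or 3.71 with genes at 0 in QSCs set to their bound. All 5 are in the fibre list that sets the class, so a barcode can be fibre-high through them. Over all kept barcodes, which no fibre limit selects, the same 4 of 6 tested were higher. Their group median was 2.77, beside 15.8% of all genes higher. The 14 ASC barcodes rich in slow genes held 73.9% of all Tnnt1, 83.0% of all Tnni1 and 77.4% of all Tnnc1 UMIs of the library. Myl3, the slow essential light chain, went the other way in fibre-high barcodes, at 226 CPM in QSCs and 145 CPM in ASCs, a log2 ratio of -0.64 (-1.07 to -0.17). Of 7 fast programme genes, all in the fibre list, none was at least 2-fold higher in fibre-high barcodes. There, 1 was at least 2-fold lower (Atp2a1, the calcium pump of fast fibres, log2 ratio -1.07), a share near the 10.7% of all genes. The median of the 7 was -0.21. Over all kept barcodes, by contrast, 3 of the 7 were at least 2-fold higher (Mylpf, Tnni2 and Pvalb) and none was lower. Their group median there was 0.27, beside the 15.8% of all genes higher. In fibre-high barcodes Pvalb had a log2 ratio of 0.39 (0.33 to 0.46) and Mb one of -0.74 (-0.82 to -0.65). Of 12 transcription regulators linked to fibre type, 11 were tested over all kept barcodes, where Nfatc1 and Prox1 were at least 2-fold lower and none was higher, a share near the 23.8% of all genes. In fibre-high barcodes 8 were tested and none was lower. Eya1 and Ppargc1a were counted as higher, a share near the 20% of all genes in that class. Both had QSC counts of 0, and the exact lower limits of their log2 ratios were -0.29 and -0.66. A difference was thus not detectable for either at this depth. Nfatc1, a calcineurin target linked to slow fibres, stood at 12.9 CPM in QSCs and 5.51 CPM in ASCs, with all 15 of its QSC UMIs in fibre-low barcodes. Prox1, a homeobox factor, stood at 60.2 and 10.9 CPM, with all 70 of its QSC UMIs and 95 of its 97 ASC UMIs in fibre-low barcodes.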

How the data were processed

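Satellite cells sorted from digested muscle were profiled by 10x Genomics 3' single-cell RNA-seq, with 2 libraries in all and 1 per group. The authors deposited whole UMI counts per gene and barcode, made with Cell Ranger 6.0.2 per the file headers, whereas the submitters' processing notes name Cell Ranger 7.1.0, Seurat 4.1.0, R 4.1.2 and mm10. The annotation is not given in the sources used here. Of 32285 feature identifiers, 32158 are in GENCODE M21 (GRCm38). Barcodes were kept with at least 500 genes and at most 10% mitochondrial UMIs. The study's limit of 1% left 86 QSC and 948 ASC barcodes, 85 and 817 of them fibre-high, and served as an alternative.

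UMIs were summed by library and class, with exact intervals. A 2-fold call needed 20 UMIs over both libraries and added 0.5 to each count. A count of 0 was set to 3 UMIs for a bound. Shares of barcodes with a UMI of a member were compared after thinning to 1200 UMIs. Other shares, such as those of isoforms that occur alone or together, were not thinned. Clusters came from Seurat 5.3.0 in R 4.3.3 (10 components, resolution 0.6), with members excluded and a naming rule written after the data were seen. TMM factors came from edgeR 4.0.16. Calculations used Python 3.11.15 with numpy 2.4.6, scipy 1.17.1 and pandas 2.3.3, and were tested on simulated data. The median gene of all kept barcodes shifted by -0.25 (log2), and TMM would raise every ratio by 0.31, or by 0.16 in fibre-high and 0.34 in fibre-low barcodes. Promoter windows came from RefSeq. Genes were named if they were members, cell type markers, in listed pathways, leading genes of a cluster or most like a member. Myhas and 2310065F04Rik were named after their values were seen, Myhas because it overlaps Myh1. Members, lists and tests were chosen with earlier results of these data known. No doublets were removed.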

Additional observations from a re-analysis of the deposited data

Results flagged for a closer look

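Signal lay in barcodes that the filters had removed. The 182 removed ASC barcodes (163992 UMIs) had Myh4 at 768 CPM (95% interval 640 to 915), above the 462 CPM (369 to 571) of the 250 removed QSC barcodes (183929 UMIs). Most of them fell short of 500 genes (163 and 246 barcodes). Myh1 was at 354 CPM in the removed ASC barcodes and 913 CPM in the removed QSC barcodes. Myh3, Myh7 and Myh8 had 0 UMIs in both sets.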

How the results depend on the processing

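The log2 ratio of the summed sarcomeric MyHC over all kept barcodes (0.25) turned to -0.40 with at most 1% mitochondrial UMIs and to -0.12 with at most 5%. It was 0.71 with at least 1000 genes per barcode, 0.56 under TMM scaling and 0.91 as a mean over barcodes. In fibre-high barcodes the sum (-0.29) turned to 0.43 when the class began at a fibre share of 20%. The Myh4 share of QSC fibre-high barcodes (28.3%) was 37.6% with at most 1% mitochondrial UMIs, 54.4% with the class from 20%, and 4.17% as a mean over the 4 barcodes with at least 10 MyHC UMIs. In ASCs (71.8%) it was 88.7% with the class from 20%, 78.6% as a mean over 60 such barcodes, and 73.5% without the 1% of barcodes with the most UMIs. It was also 73.5% without the barcode of the most MyHC UMIs, an alternative chosen after seeing the data. Myh9 over all kept barcodes (-0.51) was 0.72 (-1.87 to 6.07) with at most 1% mitochondrial UMIs, on 1 QSC UMI, where its fibre-low ratio gave no value. In fibre-high barcodes, Myh4 stayed higher and Myh1 and Myh2 lower in ASCs under all alternatives tried, at 0.76 to 1.21, -0.85 to -1.87 and -0.77 to -4.12. For Myh2 the interval held 0 with at most 1% mitochondrial UMIs (-1.71 to 0.34). It also held 0 with the class from 20% (-5.3 to 0.03), on 4 QSC and 3 ASC UMIs. The Myh2 value of -4.12, with at least 1000 genes per barcode, rested on 19 QSC UMIs. Without the filter on low counts, 6064 genes and not 2665 were at least 2-fold lower. The cause of these differences was not tested. No paired analysis was possible because each group had 1 library. The QSC depth limits Myh3, Myh7 and Myh8 most, since 1 UMI there is worth more CPM than in ASCs.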

Other observations

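A few barcodes were rich in MyHC UMIs, though they were not compared with barcodes of equal depth. A fibre-high barcode of 2301 UMIs held 26 Myh1 and 52 Myh4 UMIs, 33.9 MyHC UMIs per 1000, against a median of 0.959 per 1000 in its class. A fibre-low barcode of 3093 UMIs held 46 Myh4 UMIs and 1 Myh1 UMI at a fibre share of 8.08%. In the QSC library the barcode with the most MyHC held 25 Myh1 UMIs and no other isoform among 2026 UMIs.

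The noncoding gene 2310065F04Rik, which lies between Myh3 and Myh2 (chromosome 11, 67112461 to 67120080, minus strand), was chosen after its values were seen. It stood at 338 CPM (265 to 426) in QSC and 180 CPM (164 to 196) in ASC fibre-high barcodes, a log2 ratio of -0.91 (-1.27 to -0.54), between those of Myh1 and Myh4.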
